A study of Mus musculus with 126 samples.

Results

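The Snrpn imprinted domain genes were followed in mouse embryonic stem cells. They were chosen by name as the protein-coding genes of the domain: the paternally expressed Snrpn, Snurf, Ndn, Magel2, Mkrn3 and Peg12, and the maternally biased Ube3a. All 7 were among the 23420 genes of the deposited count table, and 6 of them were among the 15822 genes with enough counts to test. Snurf had 0 counts in every library and was not tested. Genomic imprinting is the expression of a gene from the copy inherited from only one parent, set by DNA methylation that differs between the egg and the sperm. In this domain the methylated imprinting centre lies at the start of Snurf and Snrpn, and the loss of paternal expression causes Prader-Willi syndrome while the loss of maternal UBE3A causes Angelman syndrome. Ube3a is silenced on the paternal copy in neurons by a long antisense transcript that starts at the Snurf and Snrpn promoter, and in most other cells it is expressed from both copies. The counts do not separate the parental copies.

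The study asked how DNA methylation and histone acetylation act on expression and on transcription factor binding, and its RNA part held 8 libraries in 4 groups of 2. The first group was J1 wild type cells (WT) kept for 36 h in 0.0033% DMSO, the solvent control, and the second was the same cells kept for 36 h in 5 ng/µl Trichostatin A (TSA), an inhibitor of histone deacetylases. The other two groups were cells of the J1 background lacking Dnmt1, Dnmt3a and Dnmt3b (Dnmt1-/-, Dnmt3a-/-, Dnmt3b-/-, called TKO below) in the same DMSO and in the same TSA. The culture medium held serum and the cytokine LIF in all groups, and whether the TKO cells are a single clone is not given in the sources used here. The series calls the libraries of a group biological replicates but does not say that they came from separate cultures, so the tests measure the spread between these libraries.

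Each library held 13280631 to 15542527 counts in genes, and all 10 embryonic stem cell markers examined were detected in all 4 groups. The deleted genes were lower in the TKO libraries in DMSO than in WT: Dnmt1 fell from 446 ± 25.4 to 130 ± 6.31 CPM (normalised counts per 1e6 counts; SD, n = 2), Dnmt3a from 211 ± 36.2 to 26.4 ± 0.801 and Dnmt3b from 592 ± 5.32 to 44.9 ± 1.78. A transcript that lacks a deleted exon can still give counts. With TSA the summed level of the 10 stem cell markers went from 3895 to 4354 down to 2212 to 2465 CPM in WT and from 4855 to 5387 down to 2336 to 2618 CPM in TKO. The sum of 7 trophoblast markers went from 512 to 766 up to 1213 to 1330 CPM in WT, and from 92.3 to 132 up to 321 to 363 CPM in TKO. The sum of 8 fibroblast and mesenchyme markers rose as well, from 38.4 to 45.1 up to 80.3 to 96.1 CPM in WT. In TKO it went from 10.98 to 11.01 up to 36.4 to 54.5 CPM, with 1 of the 8 at 0 in the TKO libraries with TSA. Of 7 tested, 4 were called higher and 1 lower in WT (Col3a1, -1.03, adjusted p = 0.0341, edgeR), and 7 higher and 0 lower in TKO. Of the 7 trophoblast markers 6 were called higher and 0 lower in each genotype, while Eomes in WT was at -0.50 and not called. Of all genes 27% were called higher and 25.9% lower in WT, and 30.8% and 27.9% in TKO. The sum of 10 neuronal markers went from 505 to 610 down to 277 to 340 CPM in WT and from 514 to 546 down to 349 to 361 CPM in TKO, and none of the 10 was at 0 in any group. Single neuronal markers moved both ways: of 9 tested, 3 were called higher and 3 lower with TSA in WT (median log2 fold change 0.32), and 4 higher and 2 lower in TKO (median 0.48). Their part in the results below was not tested, and in these bulk libraries a change in the number of cells expressing a gene and a change in RNA per cell cannot be told apart.

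The 7 genes span 3.24 Mb of chromosome 7 (mm10) in the order Ube3a, Snurf, Snrpn, Ndn, Magel2, Mkrn3 and Peg12. Ube3a (59228750 to 59306727, plus strand, 13 exons) encodes a ubiquitin ligase and lies 675.8 kb from Snurf. Snurf (59982501 to 60005156) and Snrpn (59982502 to 60140219), both on the minus strand, are read from a shared transcript that encodes a small protein of unknown function and the spliceosomal protein SmN. Across a gap of 2208.1 kb lies a compact group without introns. Its genes are Ndn (62348277 to 62349927, plus strand), which encodes necdin, Magel2 (62376979 to 62381640, plus strand), Mkrn3 (62417593 to 62420139, minus strand) and Peg12 (62461871 to 62464510, minus strand). Gaps of 27.1, 36.0 and 41.7 kb separate these 4, and each has a single exon, as do 12.9% of all genes in the table.

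The promoters of the 5 genes with most counts are shown because these genes differed in their response to TSA, among them the 4 paternally expressed neighbours from Ndn to Peg12. Each line gives the 250 bases before the start in the RefSeq table (GRCm38.p6), 5′ to 3′ on the gene's own strand, with CpG dinucleotides, the sites of DNA methylation, in capitals. The windows are chr7:62348027-62348276 for Ndn, chr7:62376729-62376978 for Magel2, chr7:62420154-62420403 (minus strand) for Mkrn3, chr7:62464511-62464760 (minus strand) for Peg12 and chr7:59228500-59228749 for Ube3a.
Ndn: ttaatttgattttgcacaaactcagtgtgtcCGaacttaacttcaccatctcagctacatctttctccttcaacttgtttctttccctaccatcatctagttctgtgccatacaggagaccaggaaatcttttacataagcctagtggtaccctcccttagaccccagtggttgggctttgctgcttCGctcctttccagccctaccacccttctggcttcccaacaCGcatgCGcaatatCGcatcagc
Magel2: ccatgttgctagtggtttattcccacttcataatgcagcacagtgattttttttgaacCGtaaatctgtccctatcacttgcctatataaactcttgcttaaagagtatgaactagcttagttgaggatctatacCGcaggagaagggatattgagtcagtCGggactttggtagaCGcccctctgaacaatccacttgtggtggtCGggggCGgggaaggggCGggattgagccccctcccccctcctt
Mkrn3: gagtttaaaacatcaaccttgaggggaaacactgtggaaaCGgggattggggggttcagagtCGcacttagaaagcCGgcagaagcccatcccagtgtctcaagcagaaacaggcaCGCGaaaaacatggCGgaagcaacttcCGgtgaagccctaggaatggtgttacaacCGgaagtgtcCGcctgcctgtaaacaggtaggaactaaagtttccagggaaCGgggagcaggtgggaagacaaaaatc
Peg12: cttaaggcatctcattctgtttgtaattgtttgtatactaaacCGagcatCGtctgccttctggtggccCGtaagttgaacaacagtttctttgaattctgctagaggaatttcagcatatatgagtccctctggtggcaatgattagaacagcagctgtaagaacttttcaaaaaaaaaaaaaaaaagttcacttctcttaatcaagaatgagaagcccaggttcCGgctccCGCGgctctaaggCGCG
Ube3a: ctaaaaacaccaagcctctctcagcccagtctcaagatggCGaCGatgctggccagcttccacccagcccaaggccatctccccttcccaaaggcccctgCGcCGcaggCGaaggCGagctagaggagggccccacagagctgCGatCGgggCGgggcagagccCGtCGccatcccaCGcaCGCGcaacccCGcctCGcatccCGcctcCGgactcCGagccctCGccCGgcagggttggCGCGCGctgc

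The Ube3a window holds 24 CpGs and is 70.0% G and C, while Ndn has 5, Magel2 7, Peg12 8 and Mkrn3 10. Over all 32851 RefSeq windows of this length the median was 6 CpGs, with quartiles of 2 and 16, so the maternally biased gene was above the upper quartile and the 4 paternally expressed genes without introns were within the middle range. The start that Snurf shares with Snrpn had 3 CpGs in the 250 bases before it and was 36.8% G and C. The other 3 listed Snrpn starts had 2 to 4. This window lies before the start and does not cover the gene body.

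**Figure D1:**
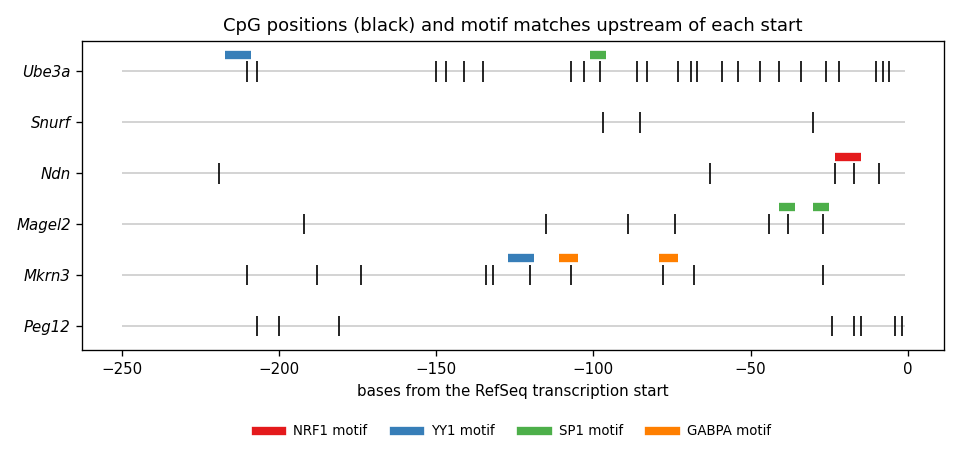
Each row is the promoter window of a gene, with distance from the RefSeq start in bases on the x axis and a mark for each CpG. Ube3a has 24 CpGs in its 250 bases, and the paternally expressed genes have 3 to 10.

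Short motifs of the 5 factors that the series assayed by chromatin immunoprecipitation were searched on both strands of the same windows. They were GCGCANGCG for NRF1 (in 5.163% of all windows), AANATGGCG for YY1 (1.12%), GGGCGG for SP1 (32.742%), CCGGAAG for GABPA (6.907%) and CACGTG for MAX (6.021%). In the Ndn window an NRF1 match lay at positions -23 to -15, counted back from the start. The Magel2 window held SP1 matches at -41 to -36 and at -30 to -25. In the Mkrn3 window a YY1 match lay at -127 to -119 and GABPA matches at -111 to -105 and -79 to -73. The Ube3a window held a YY1 match at -217 to -209 and an SP1 match at -101 to -96. Peg12 and the listed starts of Snurf and Snrpn had no match, and MAX had none in any of these windows. None of the matches overlapped another, and the factors' binding was not analysed here.

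Snurf and Snrpn had almost no counts. Snurf was 0 in all 8 libraries, where 3 counts correspond to 0.183 to 0.243 CPM. Snrpn had 3 and 7 counts in WT with DMSO, 5 and 6 in WT with TSA, 12 and 7 in TKO with DMSO and 14 and 14 in TKO with TSA. In the deposited gene models 1970 of the 1971 exon bases of Snurf (99.9%) also belong to Snrpn, and they make up 82.8% of the 2380 exon bases of Snrpn. Of the 14 Snrpn exons, 4 hold no base shared with Snurf, and 410 bases are free for Snrpn alone. How reads in exons of both genes were counted is not given in the sources used here, so these values are no measure of the shared transcript. The nearest other rows on the same strand had more counts: the small nucleolar RNA gene Snord64 (59978811 to 59978856) had 98 to 174 counts and the non-coding transcript D7Ertd715e, listed by RefSeq as a synonym of the long antisense host transcript Snhg14, had 1121 to 1965.

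Among the 5 members other than Snurf and Snrpn the order of levels was the same in all groups when CPM was divided by exon length. The Snrpn row, divided by all its 2380 exon bases, was at 0.1497 ± 0.0304 CPM per kb in WT with TSA to 0.383 ± 0.0202 in TKO with TSA. It is not ranked beside the 5, since its counts are no measure of the shared transcript. In WT with DMSO the level was 62.5 ± 9.70 CPM per kb for Ube3a (SD, n = 2 for each value here), 16.9 ± 2.28 for Ndn, 7.99 ± 1.75 for Mkrn3, 3.58 ± 0.0575 for Peg12 and 0.733 ± 0.176 for Magel2. In WT with TSA it was 47.6 ± 5.19 for Ube3a, 34.8 ± 1.28 for Ndn, 8.93 ± 0.228 for Mkrn3, 3.18 ± 0.173 for Peg12 and 1.77 ± 0.319 for Magel2. In TKO with DMSO it was 70.1 ± 9.08 for Ube3a, 19.9 ± 2.85 for Ndn, 8.88 ± 1.62 for Mkrn3, 4.46 ± 0.156 for Peg12 and 0.561 ± 0.0672 for Magel2. Both DMSO groups had Ube3a well above Ndn. In TKO with TSA it was 49.6 ± 5.71 for Ube3a, 36.4 ± 2.81 for Ndn, 7.19 ± 0.145 for Mkrn3, 3.36 ± 0.177 for Peg12 and 2.49 ± 0.570 for Magel2. Neighbours in this order did not overlap between libraries in any group, and the distances at both ends narrowed with TSA, where Ndn was nearer to Ube3a and Magel2 nearer to Peg12.

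**Figure D2:**
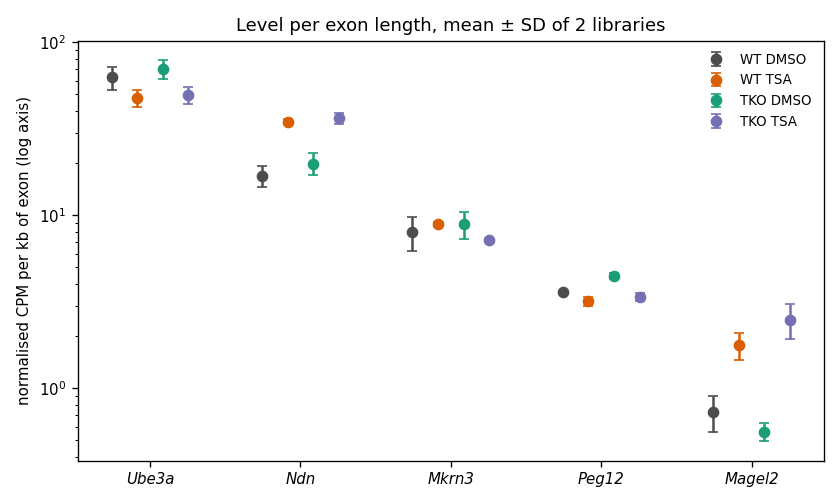
Points are group means of 2 libraries and bars are SD, with CPM per kb of exon on a log axis and the genes along the x axis. Of the 5 genes plotted, Ube3a is highest and Magel2 lowest in every group, and Magel2 goes from 0.733 ± 0.176 in WT with DMSO to 2.49 ± 0.570 in TKO with TSA.

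The first question was what inhibition of deacetylases did in cells with the DNA methyltransferases. Ndn and Magel2 rose, Ube3a fell, and Mkrn3, Peg12 and Snrpn did not pass the test. This makes 3 of 6 tested members called (adjusted p under 0.05 in edgeR's quasi-likelihood test with Benjamini-Hochberg adjustment over all genes), against 52.8% of all genes tested. The members' median log2 fold change was 0.03, beside 0.01 over all genes. By direction, 2 members were higher, against 27% of all genes, and 1 was lower, against 25.9%.

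Ndn, a growth-restraining protein of the MAGE family known from neurons and other postmitotic cells, had 30.6 and 25.3 CPM in the WT libraries with DMSO and 59.0 and 56.0 CPM with TSA. Both TSA libraries were above both DMSO libraries. The log2 fold change was 1.04 ± 0.14 (SE; adjusted p = 0.000133, edgeR), which is 2.05-fold. Magel2, a MAGE protein that works with a ubiquitin ligase in the recycling of membrane proteins, had 3.99 and 2.84 CPM with DMSO and 7.20 and 9.31 CPM with TSA. Its groups did not overlap either, at a log2 fold change of 1.26 ± 0.26 (adjusted p = 0.00232, edgeR) or 2.40-fold, from 35 and 56 counts in DMSO. Mkrn3, a ubiquitin ligase known as a brake on puberty, lies 36.0 kb beyond Magel2 and had 17.2 and 23.5 CPM with DMSO against 22.3 and 23.2 CPM with TSA. These groups overlapped, and the log2 difference of 0.16 had a 95% interval from -0.22 to 0.55 (adjusted p = 0.445, edgeR). Peg12, related to the Frat proteins that bind GSK3, had 9.34 and 9.56 CPM with DMSO and 8.73 and 8.08 CPM with TSA. Its TSA libraries were both lower, but the log2 difference of -0.17 (95% interval -0.53 to 0.20, adjusted p = 0.415, edgeR) did not pass the test and was 0.035 when libraries were scaled by total counts alone.

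Ube3a had 342 and 426 CPM in the WT libraries with DMSO and 269.9 and 315 CPM with TSA. The groups did not overlap, and the log2 fold change of -0.39 ± 0.14 passed the test (adjusted p = 0.0312, edgeR). This call ended under 4 of 15 alternatives. The change was -0.24 with upper quartile scaling (adjusted p = 0.161) and -0.19 with total counts alone (adjusted p = 0.246, edgeR), scalings under which the median of all genes moved from 0.01 to 0.16 and 0.22. It was -0.23 without WT DMSO replicate 2 (adjusted p = 0.207) and -0.29 without WT TSA replicate 1 (adjusted p = 0.177, edgeR). An opposite-strand gene, A230073K19Rik, covers 18.4% of the Ube3a exon bases and had 1 to 4 counts. Snrpn differed by -0.10 (95% interval -1.503 to 1.29, adjusted p = 0.903, edgeR) on 3 to 7 counts per library, and this value was 0.041 with upper quartile scaling and 0.095 with total counts.

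**Figure D3:**
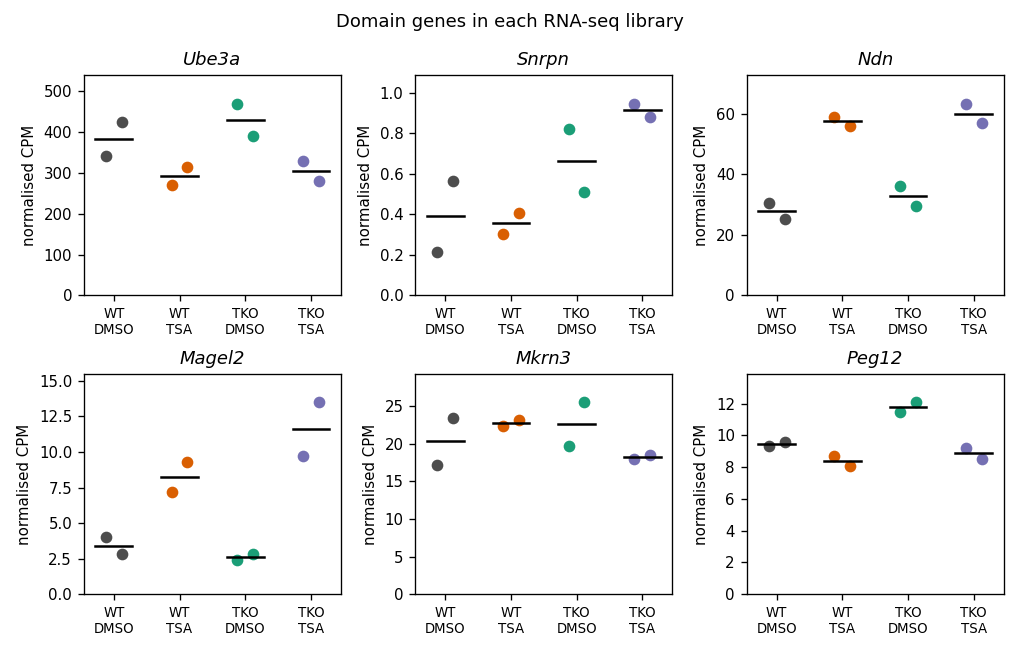
Points are the normalised CPM of each library and bars are group means, with 1 panel per gene, its own y axis from 0 and the 4 groups on the x axis. The Ndn and Magel2 libraries with TSA sit above those with DMSO in both genotypes, and the Ube3a libraries with TSA sit below.

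In the TKO cells the same inhibitor gave 4 called members of 6, against 58.7% of all genes tested. Ndn and Magel2 were higher (30.8% of all genes were called higher), and Ube3a and Peg12 were lower (27.9%). The members' median log2 fold change was 0.07, beside 0.04 over all genes. Magel2 had 2.39 and 2.84 CPM in DMSO and 9.74 and 13.5 CPM in TSA, a log2 fold change of 2.15 ± 0.27 (adjusted p = 5.88e-05, edgeR), or 4.44-fold. Ndn had 36.2 and 29.5 CPM in DMSO and 63.4 and 56.8 CPM in TSA, a log2 fold change of 0.87 ± 0.13 (adjusted p = 0.000248, edgeR), or 1.83-fold. For both genes every TSA library was above every DMSO library, and both calls held in all 15 alternatives in both genotypes.

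Ube3a had 469.8 and 391 CPM in the TKO libraries with DMSO and 329 and 279.7 CPM with TSA. The groups did not overlap, and the log2 fold change was -0.50 ± 0.14 (adjusted p = 0.00853, edgeR). The call ended without TKO DMSO replicate 1, at -0.37 (adjusted p = 0.0899, edgeR), and without TKO TSA replicate 2, at -0.39 (adjusted p = 0.0700, edgeR). Without either of those libraries Peg12 lost its call as well, and a smaller share of all genes was called. Peg12 had 11.5 and 12.1 CPM with DMSO and 9.20 and 8.54 CPM with TSA, with no overlap, and a log2 fold change of -0.41 ± 0.16 (adjusted p = 0.0488, edgeR). That call was lost in 12 of 15 alternatives, whose adjusted p ran from 0.0372 to 0.194. Mkrn3 had 19.7 and 25.5 CPM with DMSO and 18.1 and 18.6 CPM with TSA, both TSA libraries being lower, and did not pass the test (-0.30 ± 0.17, adjusted p = 0.157, edgeR). Snrpn differed by 0.44 ± 0.48 (adjusted p = 0.443, edgeR).

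The second question was what loss of the methyltransferases did without the inhibitor. None of the 6 tested members was called between TKO and WT in DMSO, where 20.4% of all genes were called, 9.62% higher and 10.7% lower. This count of 0 was the same at an unadjusted p under 0.05 in edgeR, whose smallest value was 0.0789 for Peg12, and under DESeq2. The members' median log2 difference was 0.20, beside -0.01 over all genes. The difference and its 95% interval were 0.23 (-0.07 to 0.54) for Ndn, -0.39 (-1.05 to 0.26) for Magel2, 0.15 (-0.23 to 0.54) for Mkrn3, 0.32 (-0.04 to 0.68) for Peg12 and 0.17 (-0.13 to 0.46) for Ube3a. The TKO and WT libraries overlapped for each of these genes except Peg12, whose TKO libraries of 11.5 and 12.1 CPM were both above 9.34 and 9.56 CPM. Separation of 2 libraries from 2 gives at best p = 0.333 in a permutation test, and its share over all genes was not computed. For Snrpn, on 3 to 12 counts per library, the interval of -0.47 to 2.06 around 0.80 includes 0. No difference was detected in these few counts, which are no measure of the shared transcript.

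With TSA in both genotypes the comparison of TKO with WT again called 0 of 6 members by edgeR and by DESeq2, against 18.4% of all genes, 10% higher and 8.38% lower. Snrpn had an unadjusted p under 0.05 (adjusted p = 0.102, edgeR), with 14 and 14 counts in TKO against 5 and 6 in WT and a log2 difference of 1.34 ± 0.53. Its TKO libraries were at 0.947 and 0.879 CPM and its WT libraries at 0.305 and 0.408 CPM, which did not overlap. Magel2 was also above WT in both TKO libraries, by 0.50 (95% interval -0.02 to 1.01, adjusted p = 0.164, edgeR), and Mkrn3 was below it in both, by -0.31 (-0.69 to 0.07, adjusted p = 0.238). Ndn, Peg12 and Ube3a overlapped between the genotypes, with differences of 0.06, 0.08 and 0.06.

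Whether the inhibitor acted differently in the genotypes was tested as the difference between the TSA effects, TKO minus WT. None of the 6 members was called by edgeR or DESeq2, against 1.35% of all genes (0.879% higher and 0.468% lower), and 1 had an unadjusted p under 0.05 in edgeR. That member was Magel2, whose effect was larger in TKO by 0.89 ± 0.38 (95% interval 0.06 to 1.72, adjusted p = 0.311, edgeR). The difference was -0.17 (-0.58 to 0.25) for Ndn, -0.47 (-1.01 to 0.07) for Mkrn3, -0.24 (-0.76 to 0.27) for Peg12 and -0.11 (-0.53 to 0.32) for Ube3a. The interval of each of these 4 genes includes 0, as does the wider one of Snrpn (-1.21 to 2.31).

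**Figure D4:**
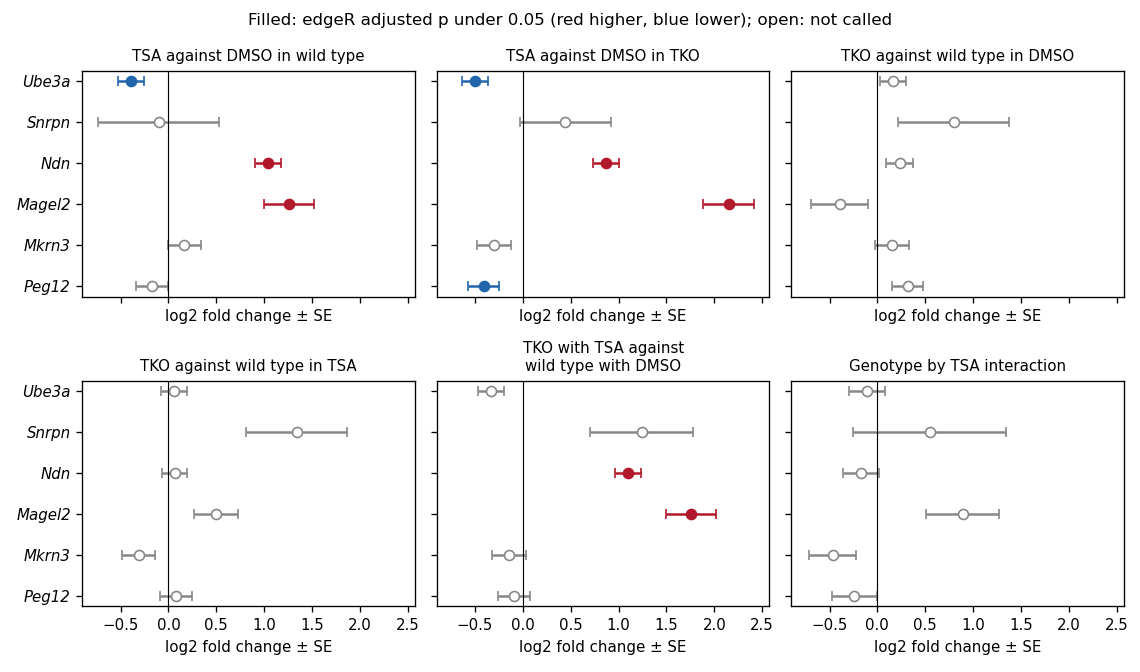
Points are log2 fold changes of the 6 tested members in each comparison, bars are ± SE, and filled points passed the edgeR test. Ndn and Magel2 are filled and above 0 with TSA in both genotypes, and no point is filled for TKO against WT at the same treatment or for the interaction.

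Cells with both changes, TKO with TSA, were set against WT with DMSO, a comparison that shares its control libraries with the first and second questions. Ndn (1.10 ± 0.14, adjusted p = 4.54e-05) and Magel2 (1.76 ± 0.26, adjusted p = 0.000158, edgeR) were higher, and these 2 of 6 members stood against 61.9% of all genes called, 31.7% higher and 30.2% lower. Side by side, the log2 values for Ndn were 1.04 with TSA alone, 0.23 with the deletions alone and 1.10 with both. For Magel2 they were 1.26, -0.39 and 1.76. Ube3a was at -0.33 ± 0.14 with both (adjusted p = 0.0516, edgeR), just past the threshold, and was called in 7 of 15 alternatives. Snrpn was at 1.24 ± 0.54 (adjusted p = 0.0656, edgeR) and was called in 2 of 15 alternatives, total counts scaling (1.41, adjusted p = 0.0409) and without WT DMSO replicate 2 (2.04, adjusted p = 0.0372, edgeR). Mkrn3 and Peg12 were at -0.15 and -0.09, of which Mkrn3 became 0.022 and Peg12 0.076 with total counts scaling.

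Of the non-coding transcripts of the domain, Ipw, D7Ertd715e and Snord64 lie between Ube3a and Snurf, and A230057D06Rik and A330076H08Rik between Snrpn and Ndn. D7Ertd715e had 86.8 and 123 CPM in WT with DMSO, 69.7 and 86.7 CPM in WT with TSA, 134 and 122 CPM in TKO with DMSO and 98.0 and 70.4 CPM in TKO with TSA. In TKO both TSA libraries were below both DMSO libraries, and the log2 fold change of -0.61 ± 0.18 passed the test (adjusted p = 0.0145, edgeR), except without TKO DMSO replicate 1 or without TKO TSA replicate 2, where its adjusted p reached 0.125. In WT both TSA libraries were also below both DMSO libraries, narrowly at 86.7 against 86.8 CPM. The WT log2 fold change was -0.42 ± 0.18 (adjusted p = 0.0737, edgeR), called in 4 of 15 alternatives. It was -0.65 without WT DMSO replicate 1. The TSA libraries were thus below the DMSO libraries for D7Ertd715e and for Ube3a in both genotypes. Snord64, looked up after the rows of this interval had been seen, was at -0.50 ± 0.20 in WT (adjusted p = 0.0509) and -0.46 ± 0.19 in TKO (adjusted p = 0.0584, edgeR) and passed the test in neither. The Ipw transcript had 0 and 1 counts in WT with DMSO and 8 and 6 in WT with TSA, and A230057D06Rik had 1 and 0 against 7 and 6. Both were too low to test. In TKO Ipw had 4 and 9 counts with DMSO and 6 and 8 with TSA, which overlap, and A230057D06Rik had 3 and 2 against 4 and 11. A330076H08Rik had 4 and 2 counts in WT with DMSO and 10 and 12 with TSA, and its log2 fold change of 1.61 ± 0.56 passed the test (adjusted p = 0.0325, edgeR) but lost the call in 10 of 14 alternatives. In TKO its change was 0.54 ± 0.50 (adjusted p = 0.375, edgeR). The rows for the Snord116 cluster (Snord116, Snord116l1 and Snord116l2) held 0 counts in all libraries. They have the same start, end, exon number and exon length. How reads in several genes were counted is not given, so these 0 counts are no measure of the cluster.

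**Figure D5:**
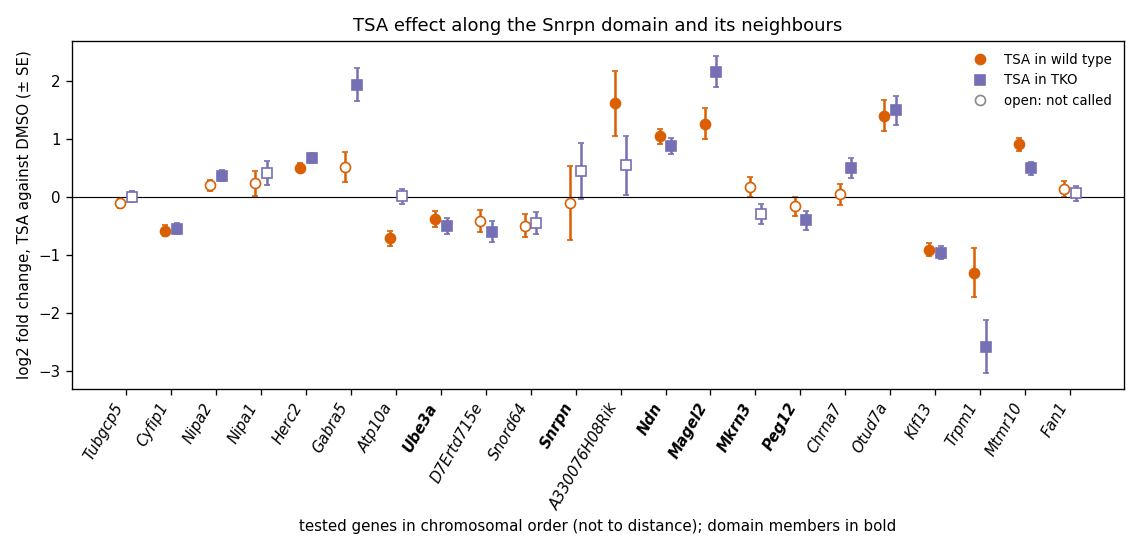
Genes stand in chromosomal order along the x axis, with the log2 fold change of TSA against DMSO on the y axis for each genotype, bars of ± SE and filled points where the test was passed. The neighbours Ndn and Magel2 are above 0 in both genotypes, and Mkrn3, next in order, is open in both.

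Of 25 listed genes in and around the domain, 20 were in the table and 15 were tested. With TSA 4 were higher and 4 lower in WT, and 6 higher and 4 lower in TKO, with a median log2 fold change of 0.13 and 0.36 beside 0.01 and 0.04 over all genes. Of all genes 27% were higher and 25.9% lower in WT, and 30.8% and 27.9% in TKO, so the WT counts are near the background. Herc2, a large ubiquitin ligase that binds the UBE3A protein, was higher in both (0.50 ± 0.08, adjusted p = 0.000499 in WT; 0.66 ± 0.08, adjusted p = 5.19e-05 in TKO, edgeR). So were Otud7a (1.39 and 1.49) and Mtmr10 (0.90 and 0.49). Lower in both were the transcription factor gene Klf13 (-0.91 and -0.97), Cyfip1 (-0.58 and -0.55), which encodes a regulator of actin and translation, and the channel gene Trpm1 (-1.31 and -2.58), whose WT call was lost without any 1 of WT DMSO replicate 2 and both WT TSA libraries. The phospholipid flippase gene Atp10a was lower in WT (-0.72 ± 0.13, adjusted p = 0.000761) and at 0.0037 in TKO (SE 0.12, adjusted p = 0.981, edgeR), and the test of that difference did not pass (0.73 ± 0.18, adjusted p = 0.0755). The GABA receptor subunit gene Gabra5 was at 0.51 in WT (adjusted p = 0.118) and rose by 1.93 ± 0.28 in TKO (adjusted p = 0.000165, edgeR), a difference of 1.42 ± 0.38 that also did not pass (adjusted p = 0.108). Nipa2 (0.36) and Chrna7 (0.49) were called higher in TKO, where leaving out TKO DMSO replicate 2 ended both calls and leaving out TKO DMSO replicate 1 or TKO TSA replicate 2 ended that of Chrna7. Nipa1, Tubgcp5 and Fan1 were not called in any comparison.

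Between the genotypes the number of neighbours called is to be read beside 20.4% of all genes in DMSO and 18.4% with TSA. In DMSO 1 was higher in TKO (Mtmr10, 0.34, adjusted p = 0.0498, lost in 11 of 15 alternatives) and 1 was lower (Gabra5, -1.07, adjusted p = 0.0273, edgeR, lost in 5 of 15). With TSA 3 were higher in TKO and 0 lower, among them the nicotinic receptor gene Chrna7 (0.96 ± 0.17, adjusted p = 0.0033) and Atp10a (0.59 ± 0.12, adjusted p = 0.00844, edgeR, lost without WT TSA replicate 1 or TKO TSA replicate 1). The other, Herc2 (0.26, adjusted p = 0.0461, edgeR), lost its call in 12 of 15 alternatives. In the interaction test 0 of 15 were called, against 1.35% of all genes.

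Relatives of the members outside the domain were listed for comparison, and 12 of 13 were tested. With TSA 4 were higher and 3 lower in each genotype, near the shares of all genes called higher and lower (27% and 25.9% in WT, 30.8% and 27.9% in TKO). The X-linked MAGE genes Magee2 (1.36 ± 0.27 in WT, 2.12 ± 0.30 in TKO) and Magee1 (1.21 ± 0.19 and 1.03 ± 0.19) were higher in both, with adjusted p from 0.000134 to 0.00181 (edgeR). Frat1, a relative of Peg12 that binds GSK3, was 1.10 ± 0.18 higher with TSA in WT (adjusted p = 0.000562, edgeR), unlike Peg12. Mageh1, a further X-linked MAGE gene, was lower in both genotypes (-0.75 ± 0.16, adjusted p = 0.00268 in WT and -0.81 ± 0.16, adjusted p = 0.00145 in TKO, edgeR). Magee2, Magee1, Frat1 and Mageh1 have a single exon each, as Ndn and Magel2 do, and moved in both directions. Between TKO and WT in DMSO, Frat1 was higher (0.71, adjusted p = 0.0204) and Snrpb, the widely expressed relative of Snrpn, lower (-0.40, adjusted p = 0.0385, edgeR), calls lost in 6 and 4 of 15 alternatives. With TSA in both, Mkrn1 was lower (-0.58), Mkrn2 higher (0.41) and Ube3b lower (-0.36), calls lost in 1, 3 and 7 of 15 alternatives. Mkrn1 lost its call without TKO TSA replicate 2, and Mkrn2 without that library or either WT TSA library. In this list 0 of the 12 passed the interaction test, against 1.35% of all genes.

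Known protein partners and targets of the members were measured in 15 of 16 cases. With TSA 1 was higher and 6 lower in each genotype, at a median of -0.22 in WT and -0.17 in TKO, where the medians of all genes were 0.01 and 0.04. Of all genes 27% were called higher and 25.9% lower in WT, and 30.8% and 27.9% in TKO. Trp53, which encodes a protein bound by UBE3A together with viral E6, fell by 0.79 in WT (adjusted p = 6.54e-05) and by 0.87 in TKO (adjusted p = 1.94e-05, edgeR). Snrpd1, a core subunit of the complexes that SmN joins, was at -0.41 and -0.49. Its WT call was lost with upper quartile scaling (-0.26, adjusted p = 0.0697), with total counts (-0.21, adjusted p = 0.129) and without WT TSA replicate 1 (-0.38, adjusted p = 0.0637, edgeR). In TKO against WT 0 were called in DMSO, where 20.4% of all genes were called. With both changes together Trim27, the ligase partner of Magel2, was lower (-0.51 ± 0.08, adjusted p = 0.00034, edgeR).

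Of 19 genes listed for the upkeep of imprints, all were tested, and with TSA 2 were higher and 12 lower in WT, and 5 higher and 9 lower in TKO, against 27% and 25.9% of all genes in WT and 30.8% and 27.9% in TKO. The 12 lower in WT include Dnmt1 (-0.28) and Dnmt3a (-0.42), calls lost in 5 and 4 of 15 alternatives. The 5 higher in TKO include the residual transcripts of the deleted Dnmt3a (0.39, lost in 4 of 15 alternatives) and Dnmt3b (0.61). Zfp57, the zinc finger protein that keeps methylation at imprinting centres, had 227 and 237 CPM in WT with DMSO and 127 and 97.3 CPM with TSA, and in TKO 262 and 276 CPM with DMSO and 109 and 78.4 CPM with TSA. No library with TSA reached the level of one without it, at log2 fold changes of -1.05 ± 0.15 (adjusted p = 0.00026) and -1.52 ± 0.15 (adjusted p = 1.74e-05, edgeR). Dppa3, which protects maternal methylation in the early embryo, moved the other way, by 1.498 ± 0.24 and 2.04 ± 0.24 (adjusted p = 0.000482 and 3.88e-05, edgeR). Mbd3, a subunit of a deacetylase complex, fell by 0.93 and 0.90. Between TKO and WT in DMSO 1 gene of the list was higher and 3 lower, against 9.62% and 10.7% of all genes. Those 3 were the deleted genes themselves (Dnmt3b -3.72, Dnmt3a -3.00 and Dnmt1 -1.78).

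Genes whose pattern over the 8 libraries was most like that of a member were ranked by Pearson's r of log2(CPM + 1), as a description over libraries that share groups. For Ndn these were Cyp2u1 (r = 0.995), Gm1673 (0.993) and Gnal (0.992). For Magel2 they were Bcl6 (0.996), Fam84a (0.996) and Btg2 (0.995). Ube3a was followed most closely by 4930447C04Rik (0.984), Sfr1 (0.983) and Serbp1 (0.978), and Peg12 by Srcrb4d (0.991), Ddost (0.986) and Mettl25 (0.983). The closest genes to Mkrn3 were Upk3bl (0.932), A330035P11Rik (0.920) and Sez6l (0.917), and those to the sparse Snrpn were Rpgr (0.965), Znrf2 (0.962) and Setdb2 (0.960). None of these genes is a member, so no member was among the 3 nearest of another.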

How the data were processed

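RNA was depleted of ribosomal RNA and sequenced with a directional kit as paired 51-base reads, per the labels' protocols. The authors deposited 1 table of raw read counts per gene, with exon coordinates and exon length in bases, per the file headers. The submitters' processing notes name TopHat2 2.0.13, featureCounts 1.4.5-p1 and edgeR 3.22.3 and the build mm10, without their settings. Whether strand was used, and how reads in several genes were counted, is not given in the sources used here. The other 118 of the 126 samples were not analysed here.

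Counts were fitted with edgeR 4.0.16 (R 4.3.3): filterByExpr with a minimum count of 10, TMM scaling, 1 mean per group over all 8 libraries, the quasi-likelihood test (two-sided), and Benjamini-Hochberg adjustment over 15822 genes, called at 0.05. The residual spread has 4 degrees of freedom. Standard errors are the log2 fold change over the square root of F. Normalised CPM (counts per 1e6) is relative to the TMM-scaled total. With 2 libraries against 2 an exact permutation test cannot go below p = 0.333, so none is given. For the same reason a lack of overlap between groups is only a description, and its share over all genes was not computed. No libraries of a group held the same values: chi-square per degree of freedom between replicates was 5.28 to 12.2. Rows of 2 gene names converted to dates were left as deposited. Alternatives were DESeq2 1.42.0, RLE, upper quartile and total counts scaling, no filter, only the groups compared, a replicate block and leaving out each library. As a check of the code, the fit was run on simulated counts with the same spread for every gene and few changed genes. That run does not cover changes in as many genes as were called with TSA.

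The members and lists were chosen with earlier results of these data known. All members were named. Of the neighbours 1 listed gene is not reported here and every other tested gene was named, and of the other lists at most 3 called genes per comparison, those with the largest change. Snord64 and 4 further transcripts of the domain were added after the table had been seen. Promoter sequences are from RefSeq (GRCm38.p6), in which all 7 members were matched.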

Additional observations from a re-analysis of the deposited data

How the results depend on the processing

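Ndn and Magel2 kept their direction and their TSA calls in both genotypes under all 15 alternatives, and 0 members were called between TKO and wild type, or in the interaction, under any alternative that gave them a value (14 in the interaction, 13 for Snrpn there). The log2 values that changed sign were, with upper quartile scaling, Snrpn with TSA in wild type (0.041), Peg12 between both changes together and neither (0.014) and Snord64 in the interaction (-0.028), and, with total counts, the same Snrpn value (0.095), Peg12 with TSA in wild type (0.035), Mkrn3 (0.022) and Peg12 (0.076) between both changes and neither, and Snord64 in the interaction (-0.010). None of these was called, and the cause was not tested. When each library was left out in turn, values that crossed 0 ranged from -0.049 to 0.40 for Mkrn3 and -0.67 to 0.70 for Snrpn with TSA in wild type, from -0.074 to 0.39 for Mkrn3 and -0.0015 to 0.33 for Ube3a in TKO against wild type in DMSO, from -0.063 to 0.17 for Ube3a, -0.017 to 0.14 for Ndn and -0.15 to 0.33 for D7Ertd715e in TKO against wild type in TSA, from -0.37 to 0.086 for Mkrn3 between both changes and neither, and in the interaction from -0.27 to 0.053 for Ube3a, -0.45 to 0.056 for D7Ertd715e, -0.26 to 1.12 for Snrpn and -0.10 to 0.21 for Snord64. With TSA in TKO the leave-one-out counts of called members ran from 2 to 4. Scaling by total counts moved mean levels by more than their SD for Ndn (61.8) and Mkrn3 (24.5) in wild type with TSA, Mkrn3 in TKO with TSA (19.2), and Peg12 in wild type with DMSO (8.83), wild type with TSA (9.04) and TKO with DMSO (11.2 CPM).

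Over all genes the split of calls moved with scaling: with TSA in wild type 4266 were higher and 4092 lower, against 5809 and 2437 with total counts and 5365 and 2794 with upper quartile scaling. In TKO the split was 4872 and 4412, against 5904 and 3268 with total counts. For both changes together it was 5015 and 4778, against 6058 and 3548 with total counts. In the interaction 139 were higher and 74 lower, against 101 and 80 with total counts and 96 and 85 with upper quartile scaling. The interaction called 213 genes, against 488 without the filter, 394 with DESeq2 and 10 to 410 with a library left out. TKO against wild type called 3220 genes in DMSO and 2910 in TSA, and with a library left out 1458 to 3331 and 941 to 3443. With the replicate number as a block, the interaction called 633 genes and TKO against wild type in TSA 4097. The correlation between deviations of same-numbered libraries was positive for each of 6 pairings of groups (0.0484 to 0.410), and the block raised the calls in every comparison. The labels do not say what a shared number marks, and the block was kept as an alternative. Under the block Snord64 passed the test with TSA in wild type (-0.50, adjusted p = 0.0370) and TKO (-0.46, adjusted p = 0.0412, edgeR), and Ube3a between both changes and neither (-0.33, adjusted p = 0.0412).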

Other observations

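A further single-exon MAGE gene of chromosome 7, Ndnl2 (64871650 to 64873040, minus strand; RefSeq symbol Nsmce3), lies beyond the domain and was named after its values were seen. It had 595 and 544 counts in wild type with DMSO, 757 and 640 in wild type with TSA, 492 and 472 in TKO with DMSO and 534 and 546 in TKO with TSA. TSA moved its log2 level by 0.05 in wild type and 0.05 in TKO, neither passing the test, in contrast to the values of Ndn and Magel2. It was lower in TKO than in wild type in DMSO (-0.35 ± 0.11, adjusted p = 0.0384) and in TSA (-0.35 ± 0.10, adjusted p = 0.0386, edgeR). How these calls hold under the alternatives was not examined.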
